A study of Homo sapiens with 9 samples.

Results

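GPR3, MC1R and 8 genes known to respond to cyclic AMP (cAMP) were followed in RNA libraries of the human melanoma cell line SKMEL28. The 10 genes are 10 of the 48162 genes in the count table and were found by their symbol. GPR3 was chosen by its fall with ATR knockdown in these same libraries, so its values are described without a test. MC1R, CREM, NR4A1, NR4A2, NR4A3, PDE4B, PDE4D, SIK1 and PPARGC1A were added as genes of the same signalling route, and these 9 genes were tested. They too were chosen with earlier results of these data known, so their counts of calls beside all genes are a description.

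The 9 libraries formed 3 groups of 3. All cells were grown in DMEM with 5% FBS, transduced with lentivirus carrying short hairpin RNAs (shRNAs) and selected with puromycin. The control group (shCont) carried a hairpin against GFP, the p16 knockdown group (shp16) a hairpin against p16, the product of CDKN2A, and the group with p16 and ATR knocked down together (shp16/shATR) a hairpin against p16 and one against ATR, the kinase that senses stalled replication forks. No group had ATR knocked down alone. Which of the study's ATR hairpins was used was not given in the sources used here. A legend on mRNA levels in groups of these names speaks of technical replicates of a single experiment, and nothing says that the libraries came from separate cultures, so p-values measure only the spread between these libraries, which may be technical. Count columns of the shp16/shATR group all carried the same replicate number, so its libraries are called a, b and c.

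Receptors coupled to the stimulatory G protein turn on adenylyl cyclases, which make cAMP. The cAMP opens the protein kinase A holoenzyme, and the freed catalytic subunit phosphorylates CREB, which binds cAMP response elements (CREs) in target promoters. In pigment cells MC1R, the receptor of melanocyte stimulating hormone, feeds this route and raises MITF and pigment enzymes. GPR3 is an orphan receptor known for stimulating adenylyl cyclase without an added ligand. CREM, the NR4A receptors, SIK1, PDE4B, PDE4D and PPARGC1A are known targets of CREB, and several of them act back on the route.

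The promoters below are shown because their genes were the receptor that chose the set and the members that were lower in shp16/shATR than in shCont. They were read from RefSeq on GRCh38.p14, from 250 bases before to 50 bases after the annotated start, 5′ to 3′ on the gene's strand. Capitals mark the full CRE (TGACGTCA, its own reverse complement) and its 5-base core TGACG, searched on both strands, so a core on the other strand reads CGTCA and each full CRE holds 2 overlapping cores. GPR3 lies at chr1:27392372-27392671 on the + strand, NR4A3 at chr9:99821635-99821934 on the + strand and SIK1 at chr21:43427082-43427381 on the - strand. For CREM, 88 bases around a start inside the gene are shown, at chr10:35195812-35195899 on the + strand.
GPR3 promoter: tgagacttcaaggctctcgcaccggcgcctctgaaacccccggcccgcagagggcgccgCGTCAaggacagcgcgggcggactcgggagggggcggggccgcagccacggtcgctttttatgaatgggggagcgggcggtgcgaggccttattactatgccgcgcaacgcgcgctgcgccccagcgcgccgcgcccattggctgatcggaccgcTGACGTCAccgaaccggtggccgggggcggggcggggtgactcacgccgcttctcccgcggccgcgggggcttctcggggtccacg
NR4A3 promoter: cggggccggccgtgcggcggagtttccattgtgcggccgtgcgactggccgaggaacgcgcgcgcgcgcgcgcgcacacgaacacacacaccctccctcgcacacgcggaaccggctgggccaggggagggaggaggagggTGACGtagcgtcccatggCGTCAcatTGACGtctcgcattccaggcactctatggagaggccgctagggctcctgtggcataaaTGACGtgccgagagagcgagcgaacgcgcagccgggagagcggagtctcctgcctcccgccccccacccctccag
SIK1 promoter: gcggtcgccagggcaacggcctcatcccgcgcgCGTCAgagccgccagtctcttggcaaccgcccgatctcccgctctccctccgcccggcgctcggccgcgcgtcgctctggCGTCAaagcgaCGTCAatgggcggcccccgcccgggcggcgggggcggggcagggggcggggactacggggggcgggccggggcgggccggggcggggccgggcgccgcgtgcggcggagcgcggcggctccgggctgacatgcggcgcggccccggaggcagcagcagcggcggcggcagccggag
CREM internal start: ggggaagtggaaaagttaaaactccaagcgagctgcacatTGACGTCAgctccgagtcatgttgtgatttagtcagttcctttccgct

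The GPR3 promoter held 1 full CRE that began 36 bases before the start, and another core 191 bases before it. CREM held the full CRE at an internal start, 2 bases after one annotated start and 50 bases before another, which is the same site in overlapping windows. NR4A3 had no full CRE but 4 cores, at 109, 91, 83 and 25 bases before its start. The SIK1 window had 3 cores, at 217, 137 and 126 bases before its start. Over the 9 members with RefSeq windows (29 windows, since genes can have several starts; NR4A2 had none in the table used), 2 had a full CRE and 6 had a core. PPARGC1A and PDE4D had 1 core each, in 1 of 2 and 1 of 8 windows, and MC1R, NR4A1 and PDE4B had no match in theirs. Of 27305 genes with windows, 2.25% held the full CRE and 28.4% the core in at least 1 of them. Counted by window, the members held the full CRE in 3 of 29 and the core in 8 of 29, against 1.85% and 24.6% of 35116 windows, so the share of windows with the core was near that of all genes. These matches are letters in a window and no measure of CREB binding.

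The libraries held 17314662 to 23588174 counts. The melanoma label was checked against 8 markers of the melanocyte lineage, all detected in every group, with SOX10 at 816 to 989 CPM (counts scaled by library size and TMM factors) in every library of shCont. Summed over the 8 markers, levels were 13386 to 15002 CPM in shCont, 7769 to 13015 CPM in shp16 and 10941 to 13044 CPM in shp16/shATR. Markers of other cell types were few: of 10 markers, 9 had a row, and PTPRC and CD3E were at 0 in all libraries. The keratinocyte genes KRT5 and KRT1 were at 0 in shCont and KRT14 had 3 counts in 1 shCont library, while the 3 genes together with the other markers summed to 1.08 to 2.10 CPM in shCont, 7.85 to 17.2 CPM in shp16 and 5.69 to 11.5 CPM in shp16/shATR. All 3 keratin genes were called higher in shp16 than in shCont, and none of the 4 markers tested was called between shp16/shATR and shp16. Their part in the results against shCont was not tested.

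Replicate 1 stood apart in shCont and in shp16. Over genes with a mean of at least 50 counts, shCont replicate 1 differed from replicates 2 and 3 by a chi-square of 86.2 and 105 per degree of freedom, where those replicates differed from each other by 6.02. For shp16 replicate 1 the values were 46.7 and 45.8, against 1.97 between replicates 2 and 3. Among the 10 genes, shCont replicate 1 had the lowest CPM of its group for 7 and the highest for 2. Counts that rest on these libraries are therefore also given without both of them.

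The targeted genes were read first. ATR had 45.9, 93.5 and 96.4 CPM in shCont replicates 1 to 3, 93.5, 83.4 and 85.6 CPM in shp16, and 39.9, 39.98 and 41.0 CPM in shp16/shATR libraries a, b and c. For ATR, the library labelled shCont replicate 1 thus lay near the ATR knockdown libraries, and the others lay apart from them. Other genes, picked after their values were seen, did not all follow this. EGR1 had 51.6 CPM in shCont replicate 1, 51.7 and 52.0 in the other controls and 62.7 to 65.9 in shp16/shATR. CREB1 had 28.5 CPM there, 52.1 and 46.2 in the other controls and 41.2 to 45.8 in shp16/shATR. NR4A3 at 68.7 CPM lay between the other controls and shp16/shATR. The cause of the low ATR level was not tested. ATR was lower in shp16/shATR than in shp16 by a log2 fold change of -1.12 ± 0.22 (SE, edgeR adjusted p = 0.0128). CDKN2A, whose locus also encodes ARF, had 162, 113 and 103 CPM in shCont and 78.1, 93.5 and 99.9 CPM in shp16. The groups did not overlap, but the difference of -0.48 ± 0.16 did not pass the threshold (edgeR adjusted p = 0.0723), and no RNA change at the level of the whole gene tells how much p16 protein was left.

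GPR3, the receptor that chose the set (chr1:27392644-27395814, GRCh38, GENCODE 29), had 9.54, 8.89 and 7.64 CPM in shCont. It had 8.00, 8.06 and 8.53 CPM in shp16, inside the range of the controls. In shp16/shATR it had 3.69, 2.94 and 1.69 CPM, from 64, 68 and 33 counts, and every one of these libraries lay below every library of the other groups. The log2 fold change was -1.57 ± 0.23 (SE) against shp16 and -1.65 ± 0.23 against shCont, a 2.96-fold and 3.14-fold lower level, and -0.09 ± 0.21 for shp16 against shCont. These are the values that selected GPR3 and carry no test. In bulk RNA, fewer cells with the gene and less RNA per cell cannot be told apart. The values against shp16 and against shCont share the shp16/shATR libraries, so they are not separate measurements of the fall.

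MC1R, the melanocortin receptor of pigment cells (chr16:89912119-89920977), had 3.18, 5.91 and 5.89 CPM in shCont. In shp16 it had 2.91, 4.17 and 4.34 CPM, and in shp16/shATR 5.83, 5.45 and 5.43 CPM. All 3 ATR knockdown libraries lay above all shp16 libraries for MC1R and below them for GPR3. The log2 fold change against shp16 was 0.54 ± 0.25 (95% interval 0.00 to 1.09, edgeR adjusted p = 0.247), and the difference did not pass. It passed without shCont replicate 1, at the same value of 0.54 (edgeR adjusted p = 0.0402), and in no other fit with 1 library left out. Against shCont it was 0.16 ± 0.24 with overlapping groups, and MC1R in shp16 against shCont was -0.38 ± 0.25 (edgeR adjusted p = 0.333). The value of shp16 against shCont moved to -0.63 and passed (edgeR adjusted p = 0.0256) when shCont replicate 1 was left out, whose MC1R level was the lowest of the controls. Genes that overlap MC1R had at most 8 counts in a library, where MC1R had at least 56.

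**Figure D1:**
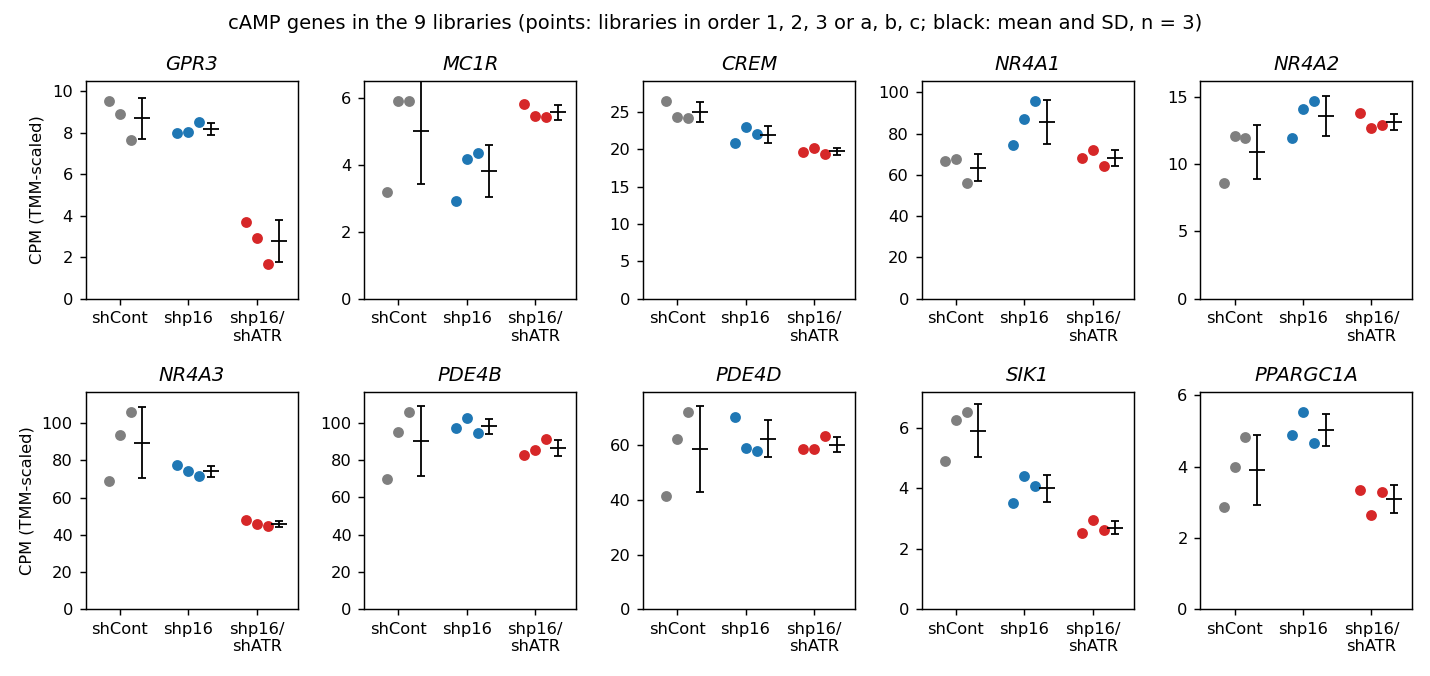
TMM-scaled CPM (y axis, from 0) of the 10 genes in each of the 9 libraries by group; points are libraries and the black bar is the mean with SD of 3. GPR3 lay at 1.69 to 3.69 CPM in shp16/shATR and at 7.64 to 9.54 CPM elsewhere. For NR4A3, SIK1 and CREM, all shp16/shATR libraries also lay below all others.

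SIK1 is a kinase that CREB switches on and that holds CREB coactivators in the cytoplasm, so it is known as a brake on the route. It had 4.90, 6.27 and 6.54 CPM in shCont, 3.53, 4.41 and 4.09 CPM in shp16, and 2.54, 2.94 and 2.61 CPM in shp16/shATR, from 44 to 131 counts a library. The 3 groups formed 3 steps with no overlap. Compared with shCont, SIK1 in shp16/shATR was lower, with a log2 fold change of -1.12 ± 0.19, or 2.18-fold (edgeR adjusted p = 0.00131), and passed under all 20 alternative settings (-1.25 to -0.52, the last on log2(FPKM + 1), which understates changes of low genes). Neither single step passed: -0.55 ± 0.18 for shp16 against shCont (edgeR adjusted p = 0.0620) and -0.57 ± 0.19 for shp16/shATR against shp16 (edgeR adjusted p = 0.110). In the same order, they passed in 3 of 21 and 2 of 20 alternative settings. SIK1 (chr21:43414483-43427189) has a near-identical copy, SIK1B, in GENCODE 29. SIK1B has no row among the deposited counts and could not be analysed here, so the share of reads counted at SIK1 is uncertain. The deposited position of SIK1 (chr21:44834395-44847008) differs from that in GENCODE 29. Whether the genome used for counting held SIK1B is therefore not known.

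PDE4B and PDE4D are phosphodiesterases that break down cAMP, and neither passed in any comparison. PDE4B (chr1:65792514-66374579) had 69.6, 95.2 and 106 CPM in shCont, 97.3, 102 and 94.3 CPM in shp16, and 82.7, 85.5 and 91.3 CPM in shp16/shATR. All 3 ATR knockdown libraries lay below all shp16 libraries, but the log2 fold change of -0.18 ± 0.14 (95% interval -0.49 to 0.13) did not pass. PDE4D (chr5:58969038-60522120) had 41.6, 62.3 and 72.4 CPM in shCont, 70.3, 59.2 and 58.0 CPM in shp16, and 58.8, 58.7 and 63.5 CPM in shp16/shATR, with overlap in every comparison. Its log2 fold changes were 0.09 ± 0.17, -0.05 ± 0.17 and 0.04 ± 0.17 for p16 knockdown, for ATR knockdown on top of it, and for both together against shCont. The spread in shCont came mostly from replicate 1, the lowest of its group for both genes. The 95% interval of PDE4D between shp16/shATR and shp16 ran from -0.43 to 0.33, so changes of that size cannot be told from none here.

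CREM encodes activators and repressors of CRE promoters, among them the short repressor ICER, known to start inside the gene. Counts were per gene, so ICER was not separated from longer transcripts. CREM (chr10:35126791-35212958) had 26.5, 24.3 and 24.2 CPM in shCont, 20.8, 23.0 and 22.1 CPM in shp16, and 19.7, 20.3 and 19.3 CPM in shp16/shATR. The groups formed steps without overlap, as for SIK1, but the steps were small. The log2 fold change of shp16/shATR against shCont was -0.34 ± 0.10, or 1.27-fold lower (edgeR adjusted p = 0.0343), while those of the single steps were -0.19 ± 0.10 and -0.15 ± 0.10 and did not pass. The call of CREM against shCont was lost when shCont replicate 2, shp16 replicate 2 or 3, or any shp16/shATR library was left out (edgeR adjusted p = 0.0573 to 0.119), with the log2 fold change between -0.36 and -0.30 in all fits with 1 library left out.

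NR4A1, NR4A2 and NR4A3 are nuclear receptors without a known hormone that are induced early after cAMP and other stimuli. NR4A3 (chr9:99821855-99866891) had 68.7, 93.6 and 106 CPM in shCont, 77.3, 74.1 and 71.4 CPM in shp16, and 47.8, 45.7 and 44.5 CPM in shp16/shATR. The ATR knockdown libraries lay below all others. NR4A3 was lower in shp16/shATR than in shp16 by -0.69 ± 0.14, or 1.61-fold (edgeR adjusted p = 0.0166), and than in shCont by -0.96 ± 0.14, or 1.95-fold (edgeR adjusted p = 0.000682). The call against shCont passed under all 20 alternative settings, whereas that against shp16 was lost when any 1 of the 6 libraries compared was left out (edgeR adjusted p = 0.0548 to 0.0852, log2 fold change -0.72 to -0.66). Between shp16 and shCont the groups overlapped, with -0.27 ± 0.14 (edgeR adjusted p = 0.232), which became -0.43 and passed (edgeR adjusted p = 0.00148) without shCont replicate 1.

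NR4A1 (chr12:52022832-52059507) had 66.8, 68.0 and 56.0 CPM in shCont, 74.4, 86.9 and 95.9 CPM in shp16, and 68.3, 72.0 and 64.4 CPM in shp16/shATR. All shp16 libraries lay above all others. The rise of NR4A1 in shp16 over shCont was 0.43 ± 0.12 on the log2 scale, or 1.35-fold (edgeR adjusted p = 0.0367), a call kept in 6 of 21 alternative settings. It was lost with shCont replicate 2 or 3, shp16 replicate 2 or 3, or any shp16/shATR library left out (edgeR adjusted p = 0.0572 to 0.146), with the log2 fold change between 0.35 and 0.53. In shp16/shATR against shp16 the value was -0.33 ± 0.12 (edgeR adjusted p = 0.151), and against shCont 0.10 ± 0.12 with overlap. NR4A2 (chr2:156324432-156342348) had 8.57, 12.1 and 11.99 CPM in shCont, 11.9, 14.1 and 14.7 CPM in shp16, and 13.8, 12.7 and 12.9 CPM in shp16/shATR. It passed in no comparison, with -0.05 ± 0.15 for shp16/shATR against shp16 (95% interval -0.39 to 0.28).

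PPARGC1A encodes PGC-1alpha, a coactivator of mitochondrial genes that CREB and, in pigment cells, MITF are known to raise. It had 2.87, 4.01 and 4.85 CPM in shCont, 4.88, 5.55 and 4.68 CPM in shp16, and 3.35, 2.64 and 3.28 CPM in shp16/shATR, from 58 to 117 counts. All 3 ATR knockdown libraries lay below all shp16 libraries. The log2 fold change of -0.71 ± 0.22, or 1.64-fold, did not pass in edgeR (adjusted p = 0.0798). It passed in 4 of 20 alternative settings, DESeq2 among them (-0.70, DESeq2 adjusted p = 0.0456). PPARGC1A (chr4:23755041-23904089) overlapped between shp16/shATR and shCont, with -0.34 ± 0.22 (edgeR adjusted p = 0.297).

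The 9 genes other than GPR3 were set beside all 15776 genes tested. For shp16 against shCont, 1 of 9 was called, NR4A1, where 14.8% of all genes were called (7.23% higher and 7.59% lower). For shp16/shATR against shp16, 1 of 9 was called, NR4A3, where 6.22% of all genes were called (2.73% higher and 3.49% lower). For shp16/shATR against shCont, 3 of 9 were called, SIK1, NR4A3 and CREM, all lower, where 23.6% of all genes were called (10.9% higher and 12.7% lower). Groups did not overlap for 3, 7 and 4 of the 9 genes in the same order, against 33.6%, 37.7% and 41.5% of all genes. The median log2 fold change of the 9 was 0.09, -0.18 and -0.06, against -0.02, 0.00 and -0.02 over all genes. MC1R alone of the 9 had a positive value between shp16/shATR and shp16.

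The fit without shCont replicate 1 and shp16 replicate 1, chosen after seeing the data, keeps only replicates 2 and 3 of those groups. They differed by chi-squares of 6.02 and 1.97 per degree of freedom, so its spread rests on close libraries. In this fit 5 of 9 were called in each comparison, while 32.7% (16.9% higher and 15.8% lower), 26.7% (12.4% and 14.3%) and 44.3% (21.1% and 23.2%) of all genes were. Between shp16/shATR and shp16 these were NR4A1, NR4A3, PDE4B, PPARGC1A and SIK1, all lower. Against shCont they were CREM, NR4A3, PDE4B, PPARGC1A and SIK1, all lower in shp16/shATR. In shp16 against shCont, NR4A1 was higher, and MC1R, NR4A3, PDE4D and SIK1 were lower. NR4A3 and SIK1 were thus called in all 3 comparisons of this fit, and NR4A2 in none.

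**Figure D2:**
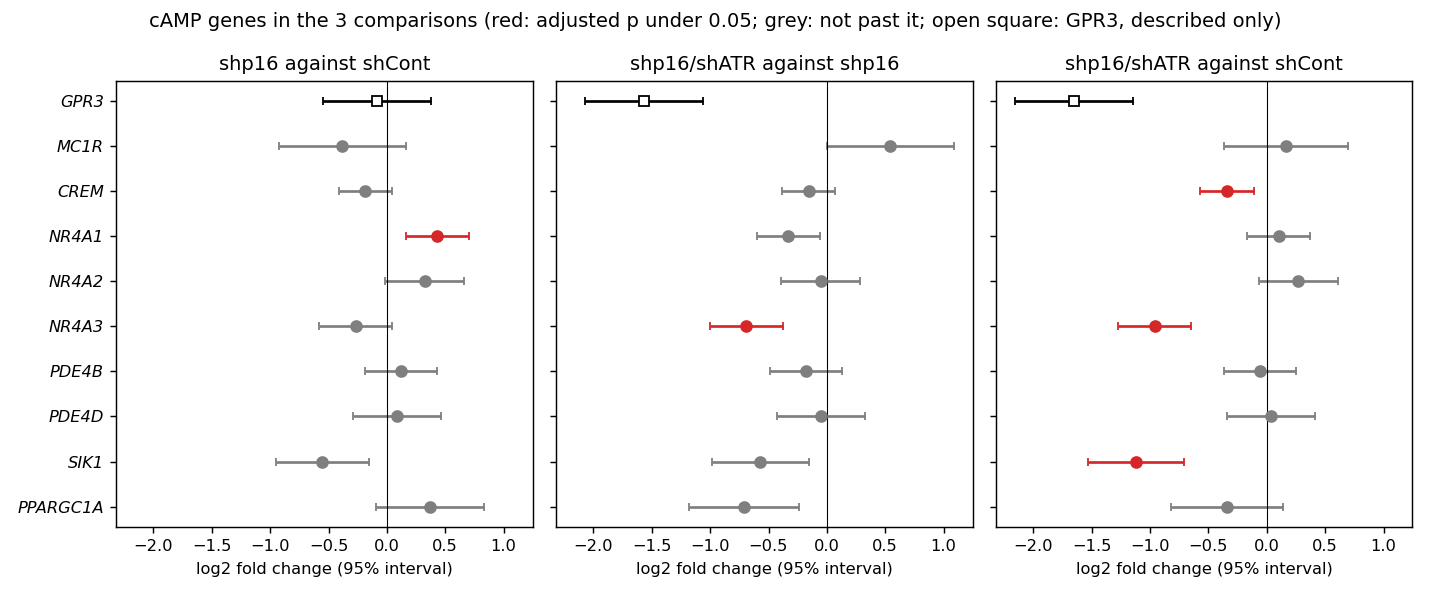
Log2 fold change (x axis, point) with its 95% interval (bar) for the 10 genes in the 3 comparisons; red marks an edgeR adjusted p under 0.05, and the open square marks GPR3, which is described only. NR4A3 at -0.69 was the one tested gene called between shp16/shATR and shp16, and SIK1 at -1.12 the lowest of those tested against shCont.

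Per gene length, on the authors' FPKM scale, the 10 genes spanned a wide range. In shCont, PDE4B was highest at 19.97 ± 4.65 FPKM (mean ± SD, n = 3), followed by NR4A3 at 18.1 ± 4.31 and NR4A1 at 13.2 ± 1.46. The ranges of PDE4B and NR4A3 overlapped, as did those of NR4A3 and NR4A1, and those of PDE4B and NR4A1 did not. CREM at 9.42 ± 0.20 and PDE4D at 7.19 ± 2.09 came next, then GPR3 at 4.11 ± 0.41 and NR4A2 at 3.16 ± 0.69. MC1R at 1.39 ± 0.47, SIK1 at 1.26 ± 0.23 and PPARGC1A at 0.62 ± 0.17 FPKM were lowest. The levels of NR4A1 and CREM, CREM and PDE4D, PDE4D and GPR3, GPR3 and NR4A2, and NR4A2 and MC1R did not overlap over the shCont libraries, and those of MC1R and SIK1 did. GPR3 was thus above MC1R in all shCont libraries by level, 3.64 to 4.36 against 0.84 to 1.69 FPKM. In shp16/shATR the order of the receptors was not clear, with GPR3 at 0.79 to 1.75 and MC1R at 1.47 to 1.60 FPKM.

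**Figure D3:**
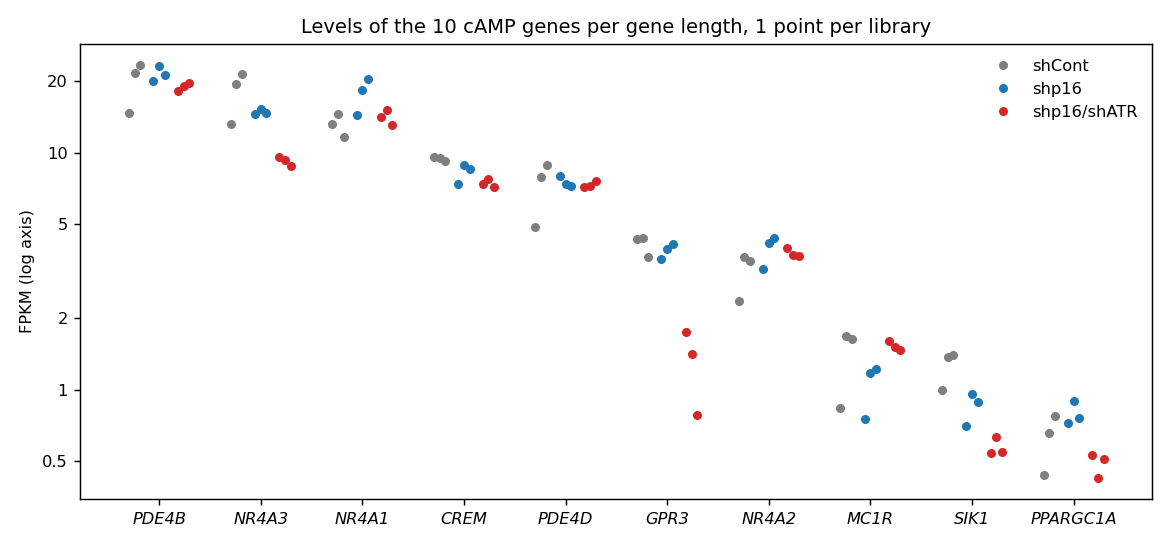
FPKM (y axis, log scale) of the 10 genes in each library, ordered by their mean in shCont, with 1 point per library and 1 colour per group. GPR3 lay above MC1R in shCont and shp16, and the receptors overlapped in shp16/shATR.

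The genes whose log2 CPM followed GPR3 most closely over the 9 libraries were TCHP, PPM1F, RNPS1, C7orf41 and COPS7B, among 10736 genes with a mean of at least 5 CPM. Their Pearson r was 0.97 to 0.98 over 9 libraries that fall into 3 groups, so this is a description of shared group levels. PPM1F had 98.8 ± 7.93, 95.9 ± 2.20 and 63.1 ± 4.596 CPM in shCont, shp16 and shp16/shATR (mean ± SD, n = 3). Among the other 9 genes, r with GPR3 was highest for NR4A3 (0.84), CREM (0.80) and SIK1 (0.78), and lowest for MC1R (-0.48).

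The rest of the route was read from lists of 97 further genes, of which 67 had enough counts to be tested. These lists were also chosen with earlier results of these data known, so their counts of calls are a description. In shp16/shATR against shp16, 6 of the 67 were called, all lower, where 6.22% of all genes were called and 3.49% were lower. The 6 were the cyclase ADCY6, the early response genes FOSB, ATF3, EGR1 and FOS, and the pigment enzyme TYRP1. FOSB fell from 4.05, 4.84 and 6.04 CPM to 1.90, 1.73 and 1.08 CPM, a log2 fold change of -1.66 ± 0.26 (edgeR adjusted p = 0.00427). EGR1 fell from 162, 153 and 153 CPM to 63.2, 62.7 and 65.9 CPM, or -1.29 ± 0.09 (edgeR adjusted p = 6.22e-05). These genes are induced by CREB and also by growth factor signalling. ADCY6 fell from 54.6, 62.5 and 63.9 CPM to 30.7, 33.6 and 25.4 CPM, or 2.02-fold (edgeR adjusted p = 0.00321), and was 1 of 5 cyclases tested. TYRP1 fell from 88.6, 107 and 102 CPM to 55.5, 52.7 and 53.6 CPM, or 1.84-fold (edgeR adjusted p = 0.00140), and was the one gene called among 6 of the pigment branch, MITF among them.

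In shp16 against shCont, 16 of the 67 were called, 8 higher and 8 lower, where 14.8% of all genes were called, 7.23% higher and 7.59% lower. Of the early response genes, EGR1 rose from 51.6, 51.7 and 52.0 CPM in shCont to the levels given above, or 3.01-fold (edgeR adjusted p = 1.15e-06), ATF3 rose 2.35-fold (edgeR adjusted p = 0.00551), and FOS rose 1.39-fold (edgeR adjusted p = 0.0144). FOSB at -0.06 ± 0.24, JUNB at -0.17 ± 0.14 and BTG2 at 0.02 ± 0.23 on the log2 scale did not pass. The other targets RGS2, a brake on G proteins, and GEM were lower, by 1.83-fold and 1.63-fold. Of the receptor partners, MRAP2, which binds melanocortin receptors, fell from 13.6, 12.9 and 13.1 CPM to 3.79, 5.88 and 6.00 CPM, or 2.52-fold (edgeR adjusted p = 0.000438), and ATRNL1, related to attractin, fell 1.81-fold. The G protein subunit GNAZ, of the inhibitory class, fell 2.00-fold, while GNAO1 of the same class rose 1.69-fold. The phosphodiesterase PDE1C, which calmodulin activates, fell from 2.96, 4.88 and 5.69 CPM to 0.73, 0.52 and 0.29 CPM, from 67 to 114 counts down to 6 to 14, and PDE7A fell 1.74-fold. The cyclase ADCY9 rose 1.35-fold, and the effectors PRKAR2A, a regulatory subunit of protein kinase A, and RAPGEF4, a cAMP-gated exchange factor, rose 1.77-fold and 1.41-fold.

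In shp16/shATR against shCont, 28 of the 67 were called, 9 higher and 19 lower, where 23.6% of all genes were called, 10.9% higher and 12.7% lower. The shCont libraries are shared with the comparison before. EGR1 lay at 62.7 to 65.9 CPM against 51.6 to 52.0 CPM, and was called higher by 0.30 ± 0.09 on the log2 scale (edgeR adjusted p = 0.0327). FOSB was 3.31-fold lower, TYRP1 2.48-fold, GNAZ 3.18-fold, MRAP2 2.74-fold, PDE7A 2.26-fold and RGS2 2.08-fold lower. The ubiquitin ligase MGRN1, linked to melanocortin signalling, was 1.51-fold lower. The CREB coactivators CRTC2 and CRTC1 were 1.49-fold and 1.41-fold lower and the CREB relative ATF1 1.29-fold higher. PRKACB, a catalytic subunit of protein kinase A, was 1.52-fold higher and PRKAR1B 1.49-fold lower. ADORA2B, an adenosine receptor coupled to the stimulatory G protein, was 1.499-fold lower (edgeR adjusted p = 0.0387) and was 1 of 2 receptors tested among 14 listed. The other 12 had too few counts, and the ligand gene POMC had at most 1 count in a library.

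**Figure D4:**
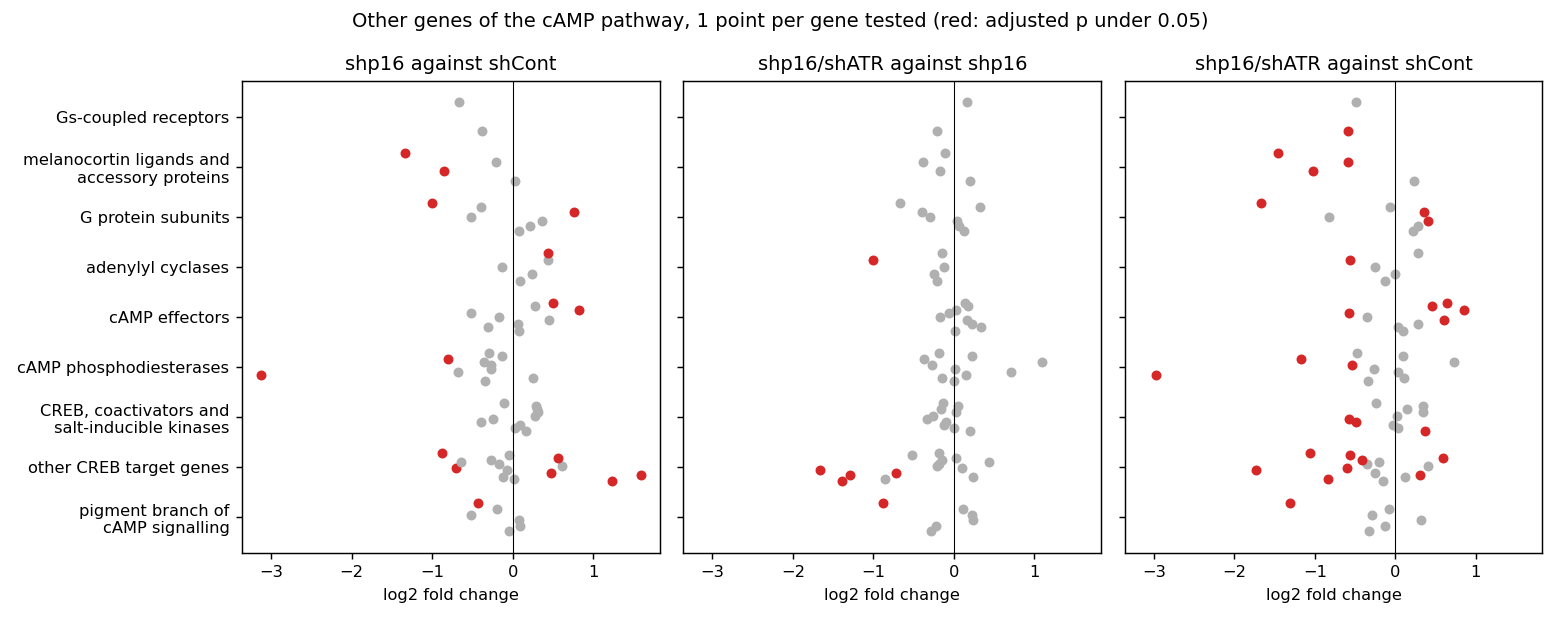
Log2 fold change (x axis) of the other genes of the cAMP pathway by list (y axis), 1 point per gene tested, in the 3 comparisons; red marks an edgeR adjusted p under 0.05. All 6 red genes between shp16/shATR and shp16 lie left of 0, and PDE1C is the point farthest left in both comparisons against shCont.

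Without shCont replicate 1 and shp16 replicate 1, 33, 25 and 45 of 68 genes of these lists were called for shp16 against shCont, ATR knockdown on top of it, and both together against shCont, where 32.7%, 26.7% and 44.3% of all genes were. Between shp16/shATR and shp16, 17 of the 25 were lower and 8 were higher, where 14.3% of all genes were lower and 12.4% higher. In the fit of all 9 libraries the keratin genes named above were not called in that comparison, and the summed melanocyte markers, a sum carried mostly by PMEL, overlapped between its groups. Of the 8 melanocyte markers, S100B was called higher in shp16/shATR than in shp16 (0.67 ± 0.15, edgeR adjusted p = 0.0254) and TYRP1 lower. S100B had 717, 498 and 489 CPM in shCont, 307, 380 and 375 CPM in shp16, and 573, 582 and 540 CPM in shp16/shATR, and was lower in shp16 than in shCont (-0.68 ± 0.15, edgeR adjusted p = 0.0130). Its part in the other results was not tested.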

How the data were processed

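RNA was extracted with Trizol, cleaned on a column with a DNase step and made into libraries with the NEBNext Ultra 2 kit; libraries, sequencing and primary analysis were done by Novogene. The authors deposited raw counts per gene, and FPKM values that equal those counts scaled by gene length and library total. By this match, shp16/shATR libraries a, b and c are the FPKM replicates 1, 2 and 3 in that order. The submitters' processing notes name STAR 2.6.1, DESeq2 2 and GRCh38; the strand setting of the counting was not given in the sources used here. The deposited gene coordinates equal those of GENCODE 29 (GRCh38) for 248 of 45342 genes found there, and for 0 of the 10 members. They are thus not those of GRCh38 in that release, and the build used for counting was not settled. Positions in the text were taken from GENCODE 29 by gene identifier.

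The members and lists were chosen with earlier results of these data known. Counts were fitted in edgeR 4.0.16 (R 4.3.3) with filterByExpr, TMM factors and the quasi-likelihood F test, 1 coefficient per group over all 9 libraries, and p-values were Benjamini-Hochberg adjusted over 15776 genes with a threshold of 0.05. DESeq2 1.42.0, limma 3.58.1 on log2(FPKM + 1) or log2(FPKM + 0.1), other normalization factors, other filters (none, or 10 counts in every library), a threshold of 0.01, fits of the compared groups alone, a replicate block and fits without each library were alternatives. An exact permutation test of 3 against 3 cannot go below p = 0.1 and was not used. The procedure was tested on simulated data in which no library was set apart, so that test does not cover a replicate that stands apart.

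Named were the 10 genes, CDKN2A and ATR, list genes past the threshold (up to 4 per list and comparison, the largest change first; genes named without meeting this were chosen after their values were seen), and the 5 genes most correlated with GPR3, on log2(CPM + 0.5). Replicate numbers showed no clear pairing: on FPKM, deviations of same-numbered libraries from their group means correlated at -0.30 to 0.29. Those of differently numbered libraries correlated at -0.37 to 0.43. With 3 libraries per group, of which replicate 1 stood apart in 2 groups, this check cannot exclude pairing. Within groups, the chi-square between 2 libraries ran from 1.97 (shp16 replicates 2 and 3) to 105 per degree of freedom. Pairs across groups were not compared in this way. Totals of 17314662 to 23588174 counts leave 33 to 216 counts for GPR3. Reads of genes on opposite strands of the members were at most 17 counts in a library.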

Additional observations from a re-analysis of the deposited data

How the results depend on the processing

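Among the 9 genes other than GPR3, the calls of SIK1 and NR4A3 against shCont in shp16/shATR held under all 20 alternatives, and the other calls depended on the setting. For shp16 against shCont, 1 of 9 was called in the fit reported, and 0 were at an adjusted p under 0.01, with library size only, with only the compared groups, with limma on either FPKM scale, and with the replicate block in edgeR or limma. For shp16/shATR against shp16, 1 of 9 was called as reported, 0 at 0.01, 2 in DESeq2, 3 with only the compared groups and 0 with the replicate block in limma. Leaving out 1 library gave 0 to 4, 0 to 5 and 2 to 4 called for p16 knockdown, ATR knockdown on top of it, and both together against shCont, where 1, 1 and 3 were reported. The highest counts were those without shCont replicate 1. Of the pathway lists, 16 genes (shp16 against shCont) became 8 at 0.01, 10 with only the compared groups and 3 with the replicate block in edgeR. The 6 of shp16/shATR against shp16 became 15 with only the compared groups, and the 28 of shp16/shATR against shCont became 13 at 0.01. Leaving out 1 library gave 11 to 23, 6 to 17 and 14 to 38. The replicate block was not fitted in edgeR for shp16/shATR, whose count columns all carry the same number. The matching FPKM values do tell these columns apart. Nothing says that same-numbered libraries belong together, so what a call lost under the block means was not settled.

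Chosen after seeing the data, leaving out both shCont replicate 1 and shp16 replicate 1 raised the counts to 5 of 9 in each comparison and to 33, 25 and 45 in the pathway lists. Summing shp16 replicates 2 and 3 gave 0 of 9 for shp16 against shCont and for shp16/shATR against shp16. Over all genes, 2339, 981 and 3724 calls became 5264, 4304 and 7130 without both libraries, 994, 309 and 1974 at 0.01, 292 to 3223 for shp16/shATR against shp16, 1344 to 4192 for shp16 against shCont and 2354 to 5395 for shp16/shATR against shCont with 1 library left out. They became 1368 and 399 (the first and the second comparison) with the summed libraries, 423 for shp16 against shCont with the replicate block in edgeR, and 1513 and 481 with the block in limma. Only the compared groups gave 1186 and 2878, and DESeq2 gave 1508 for shp16/shATR against shp16.

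Signs turned for values near 0, none of them called in the fit reported. With 1 library left out, log2 fold changes ran as follows. In shp16 against shCont, PDE4B ran from -0.0427 to 0.251 and PDE4D from -0.115 to 0.267. In shp16/shATR against shp16, NR4A2 ran from -0.139 to 0.0053 and PDE4D from -0.104 to 0.0408. In shp16/shATR against shCont, MC1R ran from -0.0897 to 0.299, PDE4B from -0.221 to 0.0692 and PDE4D from -0.163 to 0.216. Without both libraries, GPR3, PDE4B and PDE4D in shp16 against shCont became 0.0041, -0.0334 and -0.204 (edgeR adjusted p = 0.0491 for PDE4D), PDE4D in shp16/shATR against shp16 became 0.0363, and MC1R and PDE4D in shp16/shATR against shCont became -0.0935 and -0.168. The cause was not tested.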

Other observations

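Without shCont replicate 1 and shp16 replicate 1, the genes of the cAMP route called lower in shp16/shATR than in shp16 included, beside those of the full fit, the cyclase ADCY1, the coactivators CRTC2 and CRTC3, the early response genes BTG2 and JUNB, the G protein subunits GNAO1 and GNAZ, the phosphodiesterase PDE7A, the regulatory subunit PRKAR1A and the pigment enzyme DCT. Those called higher were ATRN, GNAI2, the stimulatory G protein subunit GNAS, the melanosome gene MLANA, PDE8A, POPDC3 and the catalytic subunits of protein kinase A, PRKACA and PRKACB. These 17 lower and 8 higher genes were chosen after their values were seen.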
